A study of Mus musculus with 71 samples.

Results

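The cytosolic ribosomal protein genes were taken as every gene of the normalized table whose symbol is Rpl or Rps followed by a number (with or without the suffixes that mark close copies), together with Rpsa, Rplp0, Rplp1 and Rplp2. The rule found 82 genes among the 10508 of the table, 50 for the large subunit and 32 for the small subunit. The rule used symbols alone, although the authors had filtered the table to expressed genes, and all 82 were annotated as protein-coding genes on 19 chromosomes. Whole-blood RNA had been sequenced from mice of a hypochlorous acid (HOCl) model of systemic sclerosis, in which repeated skin injections of an oxidant lead to fibrosis, to ask how antibodies against galectin-3, a sugar-binding protein, alter blood gene expression. Per the study's methods the animals were female Balb/c AnNRj mice, 6 weeks old at the start. HOCl was injected into the skin on 5 days per week for 6 weeks, and control mice received PBS. The 6 labelled groups were control (11 mice), HOCl (12), and HOCl with the treatments D11, E07, D06 and BPR21 (12 each). D11 and E07 were given under the skin at 20 mg/kg every 5 days, while the sources used here give neither dose nor route for D06 and BPR21 and do not say what each of them is. Every group other than the control carried the HOCl injections, and groups were kept in separate cages, so cage and group cannot be told apart. The blood was globin-depleted and polyadenylated RNA was selected, so globin transcripts were removed by design.

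Gene counts summed to between 11932855 and 15948972 per mouse over 71 mice. The normalized values, called vst values below, are variance-stabilized and behave like log2 counts corrected for depth, and they were given for 70 mice, HOCl mouse 8 having counts only. The blood label was checked on markers of red cell precursors, T cells, B cells, neutrophils, monocytes and platelets: all but the red cell gene Ahsp were found in the count table, and none of those was at 0 in every mouse. Among the members' vst values 2 mice stood apart within their group. HOCl mouse 7 had a mean over the 82 genes of 13.41 and control mouse 12 one of 13.33, while the next highest mouse of either group had 12.95. Calls that changed without these mice are given both ways.

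Ribosomal proteins coat the ribosomal RNA of both subunits and are made in matched amounts, because a ribosome holds a single copy of nearly every one. Their transcripts are among the most abundant of any cell, and most begin with a run of pyrimidines that lets the mTOR pathway adjust their translation. In blood they are abundant in lymphocytes and in immature red cells, which still translate, and become scarce as red cells mature. Inherited loss of 1 copy of several of these genes, among them RPS19, RPL5, RPL11, RPS26 and RPL35A, impairs red cell production in people.

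The members were not expressed evenly. Divided by the length of the annotated canonical transcript, the median level over members was 644 CPM per kilobase (CPM being counts scaled to a fixed library total), with 482 for the large and 1038 for the small subunit genes. Rpl41, which encodes a very short protein that bridges both subunits, led with 7956 CPM per kilobase and a mean count of 61367 per mouse. It was followed on the scale of mean counts by Rplp0, the scaffold of the ribosomal stalk that recruits elongation factors, at 47919, and by its partner Rplp1 at 32716. Rpsa, a small subunit protein also known as the laminin receptor, had a mean count of 31817 and Rps24 one of 28426. At the other end 7 members had mean counts under 1000. These were Rpl36al (12.0), Rpl3l (15.1), Rpl24 (25.2), Rps10 (97.4), Rps27l (280), Rpl13a (295) and Rpl7l1 (609). Rpl3l is a copy of Rpl3 known from heart and skeletal muscle. For Rps10 the count table held 4 pseudogene symbols whose counts summed to 356 per mouse, more than the 97.4 on the gene itself. For Rps2 the counts on 12 pseudogene symbols summed to 2709, beside 3782 on the gene, so the levels of both genes depend on how reads were divided among near-identical copies and are uncertain. Of all members 63 had such symbols, counted only where the name was the member's symbol followed by -ps. Copies under other names were not counted. The low levels of Rpl24 and Rpl13a may thus also rest on how reads were divided, which was not tested. A further 8 symbols met the rule but were in the count table only, the highest of them Rps3a2 with a mean count of 1305, and they were not tested.

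Sequences around the annotated starts are shown because a pyrimidine run at the start is the feature by which this class of transcripts is known. The run marked below is the longest within 50 bases of the start and need not lie at the start itself. RefSeq promoter windows from 50 bases before to 50 bases after the start were given for 62 of the 82 members, with 74 starts in all. The longest unbroken run of C and T had a median length of 10 bases in these windows, against 7 over all promoter windows, and a run of 8 or more bases was found in 78.4% against 35.7%. The letters CTTTCC stood on the transcribed strand in 29.7% of member windows and in 4.69% of all windows, whereas on the other strand the values were 2.70% and 4.47%. Windows of the mitochondrial ribosomal protein genes held these letters in 8.11% of cases and a run of 8 or more in 33.8%. Below, 30 bases around the longest run are given for the first listed start of 7 members, 5′ to 3′ on the transcribed strand, with the run in capitals. Rpl41, Rplp0 and Rplp2 stood at one end of the pattern of variation described below, and Rpsa, Rps10 and Rpl5 at the other, with Rps25 as a member that was higher with E07. The sequences are from RefSeq (table build GRCm38.p6), with positions found by an exact match to GRCm39.
Rpl41: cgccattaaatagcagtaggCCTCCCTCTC
Rplp0: aggaccgcctggTTCTCCTataaaaggcac
Rplp2: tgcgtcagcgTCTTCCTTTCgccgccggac
Rpsa: tccggccgcccgTCCTTTCgcgctacccgg
Rps25: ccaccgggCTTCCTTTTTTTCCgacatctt
Rps10: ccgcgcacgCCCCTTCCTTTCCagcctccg
Rpl5: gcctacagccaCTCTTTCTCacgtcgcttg

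In GRCm39 these stretches were chr10:128384988-128385017 (minus strand) for Rpl41, chr5:115697525-115697554 (plus) for Rplp0 and chr7:141027549-141027578 (plus) for Rplp2. Those of the others were chr9:119956840-119956869 (plus) for Rpsa, chr9:44318981-44319010 (plus) for Rps25, chr17:27854201-27854230 (minus) for Rps10 and chr5:108048363-108048392 (plus) for Rpl5. The run was 14 bases long in Rps25 and 13 in Rps10, 10 in Rpl41 and Rplp2, 9 in Rpl5 and 7 in Rplp0 and Rpsa. In Rpl41 it reached the last base of the window, so its length there is a minimum. With the start base counted as 1, the run began at base 41 in Rpl41, 21 in Rpsa and 12 in Rplp0, and it began before the start in the other 4. Only in Rplp2 and Rps10 did the run cover the start, whereas in Rps25 and Rpl5 it ended before the start. A gene can have several starts, so the window shown need not be the start used in blood.

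Measured against all counts, blood of HOCl mice held less ribosomal protein transcript than blood of controls, and blood of mice given E07 held more than that of HOCl mice. Many other genes moved the same way on this scale, so the shift was not particular to the members. With log2(CPM + 1), the limma test described below called 48.9% of all genes lower in HOCl than in control mice. It called 62.5% of all genes higher with E07 than in HOCl mice. In control mice the 82 genes took between 6.91% and 10.6% of all counts, with a median of 8.02%. In HOCl mice the share was between 5.07% and 7.07%, with a median of 6.46%. With E07 it ran from 6.54% to 10.3%, with a median of 8.85%. The HOCl mean was 1.89 percentage points below the control mean (SE 0.401), and 9 of the 12 HOCl mice lay below every control mouse. The E07 mean was 2.55 points above that of HOCl (SE 0.376), and 11 of the 12 E07 mice lay above every HOCl mouse. The other treatments lay between, with overlap on both sides: the mean share was 7.41% ± 1.71 (SD, n = 12) with D11, 6.91% ± 1.45 (SD, n = 12) with D06 and 7.18% ± 1.34 (SD, n = 12) with BPR21. The lowest share of all, 3.54%, was in a D06 mouse. Because the share is a sum over the members, no test was made on it.

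**Figure D1:**
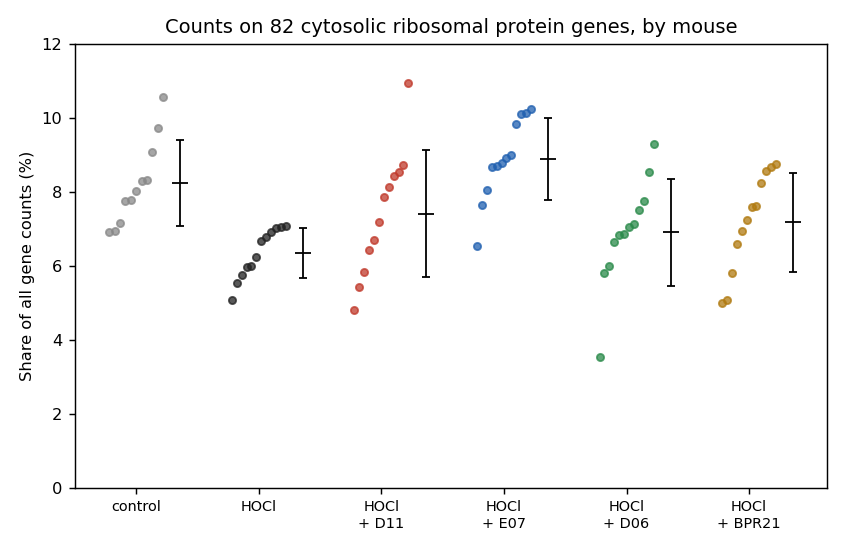
Share of all gene counts (%, vertical axis) that fell on the 82 ribosomal protein genes, with 1 point per mouse in each of the 6 groups and a bar for the mean ± SD. The 12 HOCl mice lie at or below 7.07%, under 11 of the 12 mice given E07, while the D11, D06 and BPR21 groups spread across both.

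The same mice differed in markers of blood cell types, and in bulk blood fewer cells of a type and less RNA per cell cannot be told apart. The summed level of 9 red cell precursor markers lay between 24991 and 75860 CPM in controls, between 59883 and 128634 CPM in HOCl mice and between 35332 and 68493 CPM with E07. The limma test called 8 of these 9 genes higher in HOCl than in control mice and 8 of 9 lower with E07 than in HOCl mice. The summed level of 10 T cell markers ranged from 1605 to 3733 CPM in controls, from 794 to 2169 in HOCl mice and from 1587 to 2810 with E07. That of 8 B cell markers ranged from 835 to 2519 CPM, from 350 to 1549 and from 1325 to 2789 in the same order, and 7 of the 8 were called higher with E07 than in HOCl mice. None of the T cell markers was called in either comparison, and 0 of the B cell markers between HOCl and control mice. The sums are relative to all counts, a scale on which many genes moved, as given above. On the vst scale the T cell markers had median differences of -0.11 for HOCl against control and 0.12 for E07 against HOCl. Those of the B cell markers were -0.17 and 0.53. Of 8 neutrophil markers 3 were called higher in HOCl mice and 1 lower with E07, and of 6 monocyte markers 0 in HOCl mice and 2 lower with E07. The summed level of the neutrophil markers went the other way, with means of 5705 CPM in control, 4796 in HOCl and 5096 in E07 mice. For the monocyte markers the means were 976, 709 and 739 CPM in the same order. All 5 tested platelet markers were called higher in HOCl mice and lower with E07, although their summed level ranged from 2887 to 5068 CPM in controls, from 1632 to 5463 in HOCl mice and from 2990 to 4530 with E07. The part of cell composition in any result below was not tested.

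On the vst scale, which is corrected for depth by the bulk of genes, the members did not stand lower in HOCl mice. The mean vst value over members was 12.78 in control, 12.81 in HOCl, 12.92 in D11, 12.87 in E07, 12.98 in D06 and 12.91 in BPR21 mice. Between HOCl and control mice the median difference over the 82 members was -0.02, as over all genes (-0.02), with 34 members above 0. With log2(CPM + 1) in place of vst values the median of all genes moved to -0.47 and that of the members to -0.50, and limma called 59 of 82 members lower, beside 48.9% of all genes called in that direction. Differences of single genes below are on the vst scale unless another is named.

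Between HOCl and control mice no member passed both thresholds, and the differences of most members were near 0. A call required a limma p, adjusted over all 10508 genes by Benjamini-Hochberg, that did not exceed 0.05, and a change of 1.3-fold or more. By this rule 0 of 82 members were called, beside 4.96% of all genes. At an unadjusted p under 0.05 there were 8 members, against 17.9% of all genes, and edgeR and DESeq2 on the counts called 0 as well. Rpl41 had the largest difference. Its vst value ran from 14.52 to 16.81 in controls, with a median of 15.29, and from 15.22 to 17.96 in HOCl mice, with a median of 16.06. The groups overlapped, the highest control mouse lying above all HOCl mice but 1, and the difference was 0.79 (SE 0.25, limma adjusted p = 0.0649). Rplp0 ran from 14.64 to 16.37 in controls (median 15.07) and from 14.93 to 16.76 in HOCl mice (median 15.66), a difference of 0.46 (SE 0.19, limma adjusted p = 0.178). Rps2, a protein near the entry of the mRNA channel, differed by 0.41 (SE 0.15, limma adjusted p = 0.129). With log2(CPM + 1) the differences of Rplp0 and Rps2 were -0.03 and -0.06, while that of Rpl41 was 0.31, so for Rplp0 and Rps2 a direction holds only relative to other genes.

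The lowest differences between HOCl and control mice were those of Rps10, at -0.27 (SE 0.10, limma adjusted p = 0.104), Rpl14, at -0.16 (SE 0.08), and Rpl30, at -0.16 (SE 0.09). Rps10, a beak protein of the small subunit that is marked when ribosomes collide, ran from 7.40 to 8.19 in controls (median 7.62) and from 7.02 to 7.66 in HOCl mice (median 7.49). At these counts its level rests on far fewer reads than that of most members. Single mice decided the calls at the upper end. Without control mouse 12, in which Rpl41 was highest among controls, 4 members were called higher (Rpl41, Rplp0, Rps2 and Rps29), beside 6.35% of genes. Leaving out HOCl mouse 1 or HOCl mouse 2 led to a call of Rpl41 alone. Without both HOCl mouse 7 and control mouse 12, Rpl41 (0.76, limma adjusted p = 0.00146) and Rplp0 (0.46, limma adjusted p = 0.0158) were called higher, beside 6.47% of genes. When each mouse was centred on the mean vst value of its own 82 members, so that only differences within the family were left, Rpl41 was called higher in HOCl mice (0.77, SE 0.19, limma adjusted p = 0.00871), beside 4.86% of genes called higher on that scale.

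Mice given E07 had lower Rpl41 and Rps29 than HOCl mice, while 11 others, among them Rpl14 and Rpsa, were higher by smaller amounts when judged by the adjusted p alone. Limma called 2 of 82 members lower and 0 higher, against 7.01% of all genes called lower. On the counts, edgeR called these 2 and Rplp0 lower (7.95% of genes), and DESeq2 called Rps29 and Rplp0 lower (9.41% of genes) and Rps10 higher (2.6% of genes). Rps29, a zinc-binding protein of the small subunit head, ran from 14.30 to 15.74 in HOCl mice, with a median of 14.82, and from 14.15 to 14.76 with E07, with a median of 14.41. Every E07 mouse lay below the HOCl median, although the ranges overlapped, and the difference was -0.40 (SE 0.11, limma adjusted p = 0.0167). Rpl41 ran from 14.83 to 16.15 with E07, with a median of 15.44, and differed from HOCl mice by -0.67 (SE 0.21, limma adjusted p = 0.0336). Rplp0 differed by -0.41 (SE 0.14) and just missed the threshold (limma adjusted p = 0.0512). On the log2(CPM + 1) scale the differences were -0.16 for Rpl41, 0.11 for Rps29 and 0.10 for Rplp0, none of which passed the test, so the sign of Rps29 and Rplp0 turned with the scaling. With the same scaling 69 members were called higher, beside 62.5% of all genes, the median over members being 0.62 and that over all genes 0.49.

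By the adjusted p alone 11 members were higher and 2 lower with E07, beside 5.07% of all genes higher and 9.96% lower. The count of 11 depended on the fit. It was 27 without HOCl mouse 7 (5.07% of genes), 3 with all 6 groups in a single fit (2.16%) and 0 when each mouse was centred on its own members (0.381%). Among the 11 were Rpl3, which lies at the catalytic centre, Rpl10a, Rpl11, Rpl14 and, in the small subunit, Rps3a1, Rps4x, Rps10, Rps19, Rps25 and Rpsa. Rpl14 had the largest of these differences. It ran from 12.33 to 12.84 in HOCl mice (median 12.41) and from 12.59 to 12.98 with E07 (median 12.77). All 12 E07 mice lay above the HOCl median, and the difference was 0.29 (SE 0.07, limma adjusted p = 0.00454). Rpsa ran from 14.51 to 14.96 in HOCl mice (median 14.71) and from 14.77 to 15.19 with E07 (median 14.88), so that again all 12 lay above the HOCl median (difference 0.25, SE 0.07, limma adjusted p = 0.0152). Rps25, which some viral and cellular mRNAs need to start translation internally, differed by 0.26 (SE 0.07), and Rps10 by 0.26 (SE 0.09). Rpl22l1, with 0.27 (SE 0.11), was among the 3 highest differences but did not pass (limma adjusted p = 0.102).

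**Figure D2:**
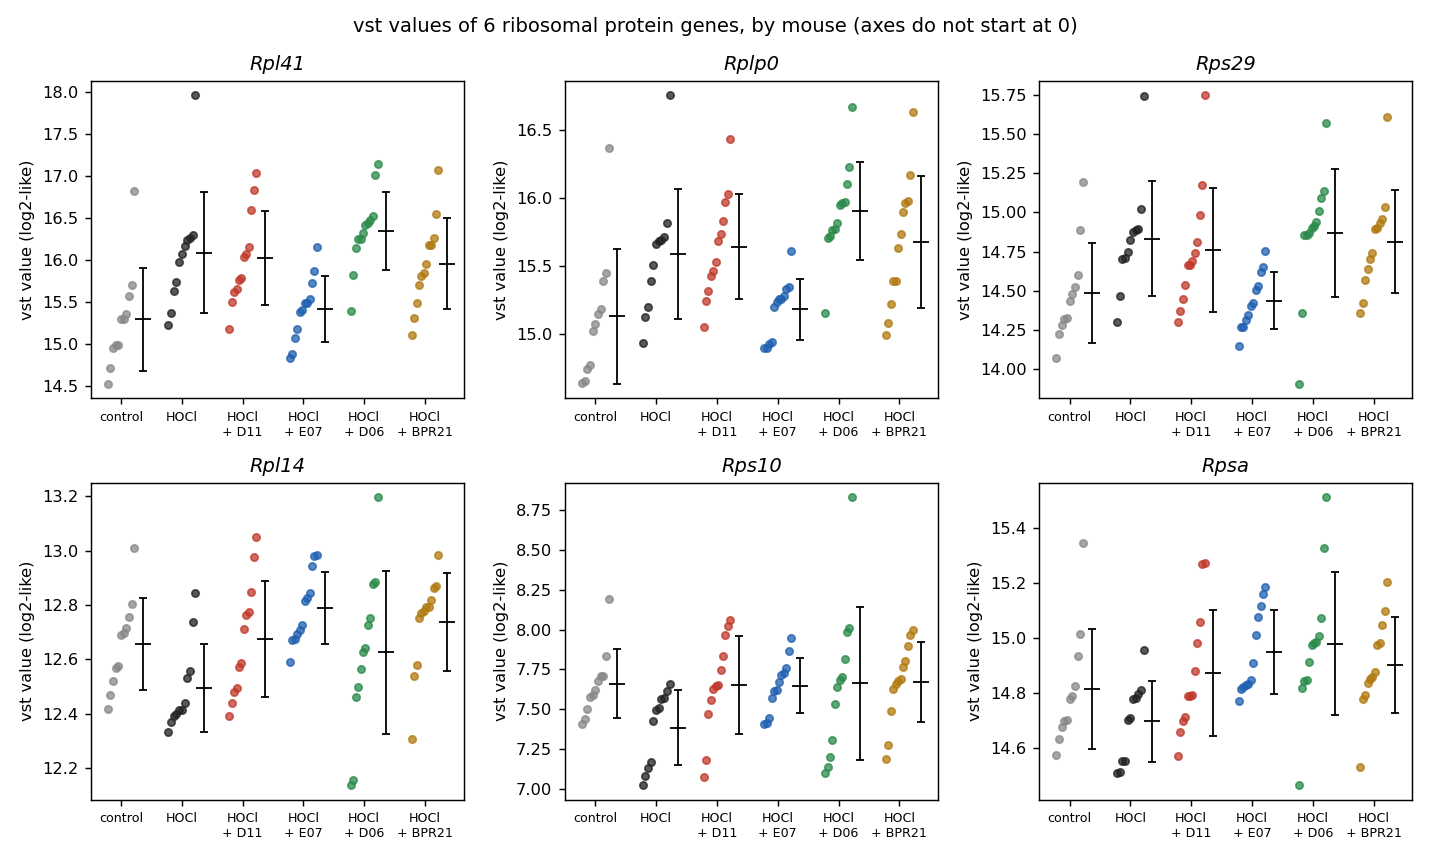
vst values (log2-like, vertical axes that do not start at 0) of 6 ribosomal protein genes, with 1 point per mouse and a bar for the mean ± SD in each of the 6 groups. Rpl41, Rplp0 and Rps29 have higher means in HOCl than in control and E07 mice, whereas Rpl14, Rps10 and Rpsa have lower means in HOCl mice, and the groups overlap in every panel.

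Among the genes tied to inherited red cell failure, Rps19 differed by 0.25 (SE 0.08, limma adjusted p = 0.0443) and Rpl11 by 0.24 (SE 0.07, limma adjusted p = 0.0231) between E07 and HOCl mice. Rpl5, which with Rpl11 can bind the p53 regulator Mdm2, differed by 0.22 (SE 0.08, limma adjusted p = 0.0674). Rps26 (-0.03) and Rpl35a (-0.07) were near 0 with SEs of 0.09 and 0.11, and Rps6, the substrate of S6 kinase, differed by 0.13 (SE 0.06). Of the stalk proteins, Rplp1 differed by -0.17 (SE 0.13) and Rplp2 by -0.27 (SE 0.12). Centred on the mean of its own members, E07 blood was lower than HOCl blood in Rpl41 (-0.73, SE 0.16), Rplp0 (-0.47, SE 0.11) and Rps29 (-0.46, SE 0.09), the 3 members called on that scale, beside 8.29% of genes called lower. Their limma adjusted p-values were 0.00135, 0.00186 and 0.000319.

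The 2 calls also depended on few mice. With the mouse number as a block neither passed, although the differences were -0.64 for Rpl41 (limma adjusted p = 0.0712) and -0.38 for Rps29 (limma adjusted p = 0.0502). Without HOCl mouse 4, or without E07 mouse 10, 0 members were called. Without E07 mouse 8, 9 or 11 or HOCl mouse 5 only Rps29 was called, and without HOCl mouse 7 only Rpl41. Without HOCl mouse 7 and control mouse 12, Rpl41 differed by -0.48 (SE 0.15, limma adjusted p = 0.0299) and was the sole member called, beside 6.68% of genes called lower. The comparison of E07 with HOCl and that of HOCl with control share the HOCl mice, so opposite signs in both are not independent.

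**Figure D3:**
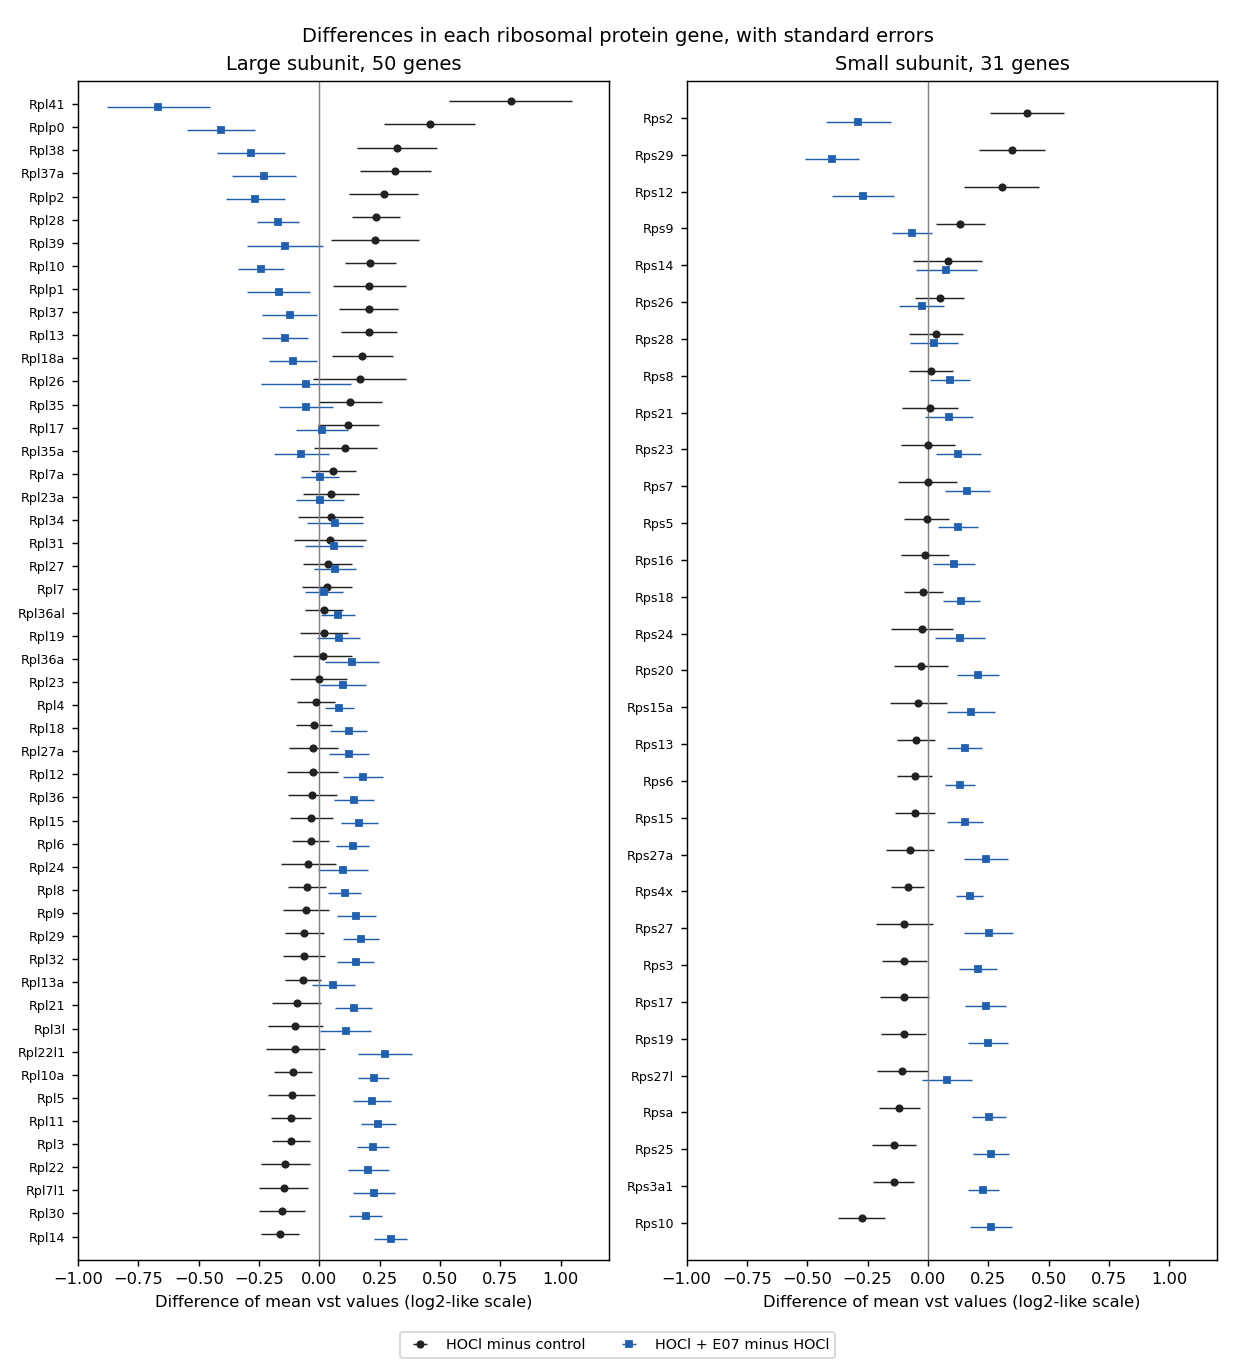
Difference of mean vst values (log2-like, horizontal axis) for 50 large and 31 of the 32 small subunit genes, with black circles for HOCl minus control, blue squares for E07 minus HOCl, and bars of 1 SE. Rpl41 is at 0.79 and -0.67, most members lie within about 0.3 of 0, and both differences use the same HOCl mice.

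With the other treatments most members lay slightly above their level in HOCl mice, and limma called 0 members with any of them. The median difference from HOCl mice over the 82 members was 0.12 with D11, 0.19 with D06 and 0.10 with BPR21, against -0.00, -0.01 and -0.00 over all genes. For D11 72 members lay above 0, for D06 78 and for BPR21 71, whereas 49.3%, 47.8% and 49.7% of all genes did. Members varied together from mouse to mouse, as described below, so these counts are not counts of independent genes. With members averaged in each mouse, the difference from HOCl mice was 0.11 (SE 0.09) for D11 and 0.17 (SE 0.09) for D06. It was 0.10 (SE 0.08) for BPR21 and 0.06 (SE 0.08) for E07, and no test was made on these means. The shares of all genes called were 0.0571% for D11, 0.133% for D06 and 0.638% for BPR21. At an unadjusted p under 0.05 there were 16, 24 and 13 members, against 14.1%, 12.7% and 14.0% of all genes. EdgeR called 0 members in each, and DESeq2 called 0 for D11 and BPR21 but 2 higher for D06 (Rpl13a and Rpl22l1), beside 1.48% of the genes to which it gave an adjusted p. For E07 the same median over members was 0.11, against 0.02 over all genes, with 62 members above 0. All 4 comparisons use the same HOCl mice, and without HOCl mouse 7 and control mouse 12 the medians were 0.18, 0.24, 0.16 and 0.17 for D11, D06, BPR21 and E07.

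With D11 the highest differences from HOCl mice were those of Rpl22l1 (0.31, SE 0.13), a copy of the lymphocyte regulator Rpl22, Rps10 (0.27, SE 0.11) and Rps24 (0.25, SE 0.12). The lowest were those of Rpl10, a late-joining protein of the large subunit (-0.11, SE 0.10), Rpl37a (-0.10, SE 0.14) and Rpl28 (-0.07, SE 0.10). With D06 Rpl22l1 (0.37, SE 0.13), Rplp1 (0.34, SE 0.14) and Rpl39 (0.32, SE 0.16), a protein of the exit tunnel, were highest. Rpl10 (-0.02, SE 0.11), Rps2 (-0.01, SE 0.17) and Rpl38 (-0.00, SE 0.17) were lowest there. With BPR21 Rps10 (0.29, SE 0.10), Rpl12 (0.25, SE 0.09) and Rpl5 (0.25, SE 0.09) were highest, and Rpl41 (-0.13, SE 0.24), Rpl28 (-0.13, SE 0.10) and Rpl37a (-0.12, SE 0.15) lowest. None of these passed the test (limma adjusted p from 0.183 to 0.996).

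Treated groups were also set against controls, and E07 against D11, comparisons added after the values had been seen. Against controls 0 members were called for E07 (0.00952% of genes), D11 (0.0761%) or BPR21 (0.504%), with 0, 16 and 10 members at an unadjusted p under 0.05, against 7.60%, 16.1% and 19.9% of all genes. With D06 5 large subunit members were called higher than in controls, beside 7.27% of genes called higher. They were Rpl41 (1.06, SE 0.20, limma adjusted p = 0.00156), Rplp0 (0.77, SE 0.16), Rpl39 (0.55, SE 0.14), Rplp1 (0.54, SE 0.12) and Rplp2 (0.40, SE 0.12). The whole stalk, Rplp0, Rplp1 and Rplp2, was thus among them, but with log2(CPM + 1) Rpl41 (0.49) was the sole member called higher, 39 were called lower (64.3% of genes), Rplp0 differed by 0.20, and the signs of Rplp1 (-0.03), Rplp2 (-0.17) and Rpl39 (-0.01) turned. Rpl41 ran from 15.39 to 17.14 in D06 mice, with a median of 16.36, and overlapped the controls. Centred on the members' own mean only Rpl41 (0.86) and Rplp0 (0.57) were called, beside 3.67% of genes. On the vst scale all 9 red cell precursor, all 5 platelet and 2 of 8 neutrophil markers were called higher in D06 than in control mice. Of the 6 monocyte markers 1 was called lower, and 0 T cell or B cell markers were called. The number of calls against controls depended on whether control mouse 12 was included. Without it 16 members were called higher with D06 (8.61% of genes), 6 with D11 (4.71%), 7 with BPR21 (5.02%) and 0 with E07. The 6 with D11 were Rpl41, Rplp0, Rplp1, Rpl39, Rps2 and Rps12, called on the vst scale, and all these comparisons share the control mice. E07 mice were lower than D11 mice in Rpl41 (-0.60, SE 0.18, limma adjusted p = 0.0406) and Rplp0 (-0.46, SE 0.12, limma adjusted p = 0.0254), the 2 members called, beside 4.27% of genes called lower. With log2(CPM + 1) the differences were -0.20 and -0.06, neither passed the test, and 36 members were called higher (43% of genes). With each mouse centred on its own members 0 were called. In the same comparison 4 of 9 red cell precursor and 3 of 5 platelet markers were called lower and 2 of 8 B cell markers higher, and their part was not tested. D11 and E07 are both antibodies against galectin-3 and were given at the same dose and interval.

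In the order of mean vst values Rpl41 was highest in D06 mice (16.34 ± 0.47, SD, n = 12), followed by HOCl (16.08 ± 0.72, SD, n = 11), D11 (16.02 ± 0.56, SD, n = 12), BPR21 (15.95 ± 0.54, SD, n = 12), E07 (15.41 ± 0.39, SD, n = 12) and control mice (15.29 ± 0.62, SD, n = 11). Neighbours in this order differed by less than the SD of the higher group, and no test was made of the order. Rplp0 had the order D06 (15.90), BPR21 (15.67), D11 (15.64), HOCl (15.59), E07 (15.18) and control (15.13). D06, BPR21, D11 and HOCl were thus the upper and E07 and control the lower groups for both genes.

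Large subunit transcripts took a greater part of the members' counts in HOCl mice, and much of this rested on Rpl41. Because numerator and denominator come from the same library, the ratio of large to small subunit counts does not depend on how libraries are scaled. Its log2 value ran from 0.18 to 0.50 in controls (median 0.32), from 0.32 to 0.82 in HOCl mice (median 0.45) and from 0.22 to 0.37 with E07 (median 0.27). The HOCl mean exceeded the control mean by 0.15 (SE 0.05), with 11 of 12 HOCl mice above the control median, and the E07 mean differed from that of HOCl by -0.18 (SE 0.04), with all 12 E07 mice below the HOCl median. The mean was 0.41 with D11, 0.47 with D06 and 0.40 with BPR21. Rpl41 alone took 4.62% ± 1.43 (SD, n = 11) of the members' counts in controls, 7.43% ± 2.62 (SD, n = 12) in HOCl mice and 4.64% ± 0.990 (SD, n = 12) with E07. In HOCl mouse 7 it took 15.0%. Without Rpl41 the log2 ratio was 0.19 in control, 0.27 in HOCl and 0.16 in E07 mice. Without the 5 members of highest mean count it was 0.18, 0.21 and 0.16, so these 3 groups then lay closer together.

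**Figure D4:**
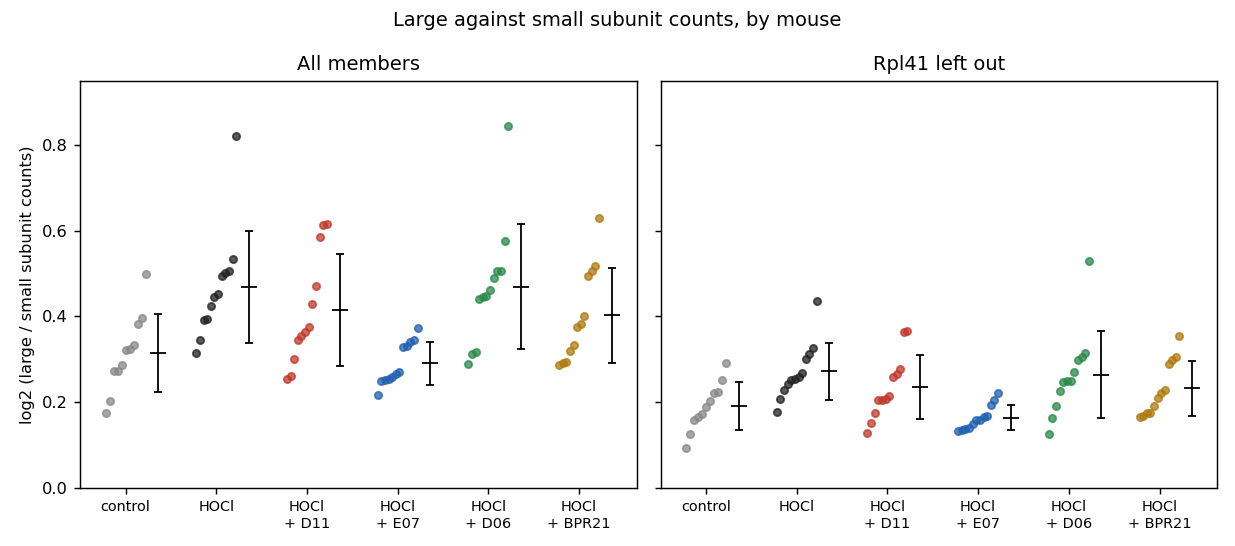
log2 ratio of counts on large to counts on small subunit genes (vertical axis), with 1 point per mouse and a bar for the mean ± SD in each of the 6 groups, for all members (left) and with Rpl41 left out (right). The HOCl mean falls from 0.47 to 0.27 when Rpl41 is left out, and in both panels every E07 mouse lies below the HOCl median.

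On the vst scale each gene weighs the same. The mean of the large subunit genes minus that of the small ran from -0.77 to -0.67 in controls (median -0.70), from -0.72 to -0.53 in HOCl mice (median -0.63) and from -0.75 to -0.69 with E07 (median -0.73). The HOCl mean exceeded the control mean by 0.06 (SE 0.02), and the E07 mean differed from that of HOCl by -0.08 (SE 0.02), with all 12 E07 mice below the HOCl median. Between HOCl and control mice 25 of 50 large and 9 of 32 small subunit genes lay above 0, with medians of 0.00 and -0.03. Between E07 and HOCl mice 35 of 50 large and 27 of 32 small subunit genes lay above 0, with medians of 0.08 and 0.15. As a sum over members, the difference between the subunits carries no test.

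Within groups the members varied together. After the group means were removed, a single component held 64.7% of the variance of the 82 standardized genes over 70 mice, where the first component of all genes held 11.4%. For 65 members this component carried more than 50% of their variance. The 5 members with the lowest share were Rpl7l1, Rps10, Rpl36al, Rpl3l and Rpl24, all among the 7 of lowest count. A second component held 13.1% and set Rps29 (correlation 0.80), Rpl41 (0.76), Rplp0 (0.76), Rps2 (0.70) and Rplp2 (0.66) at one end. Among those at the other end were Rps4x (-0.63), Rps10 (-0.61), Rpsa (-0.54) and Rpl14 (-0.49). Of the large subunit genes 27 of 50, and of the small 9 of 32, lay on the side of Rpl41. These values describe the mice and share library, depth and cell composition, and carry no test.

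**Figure D5:**
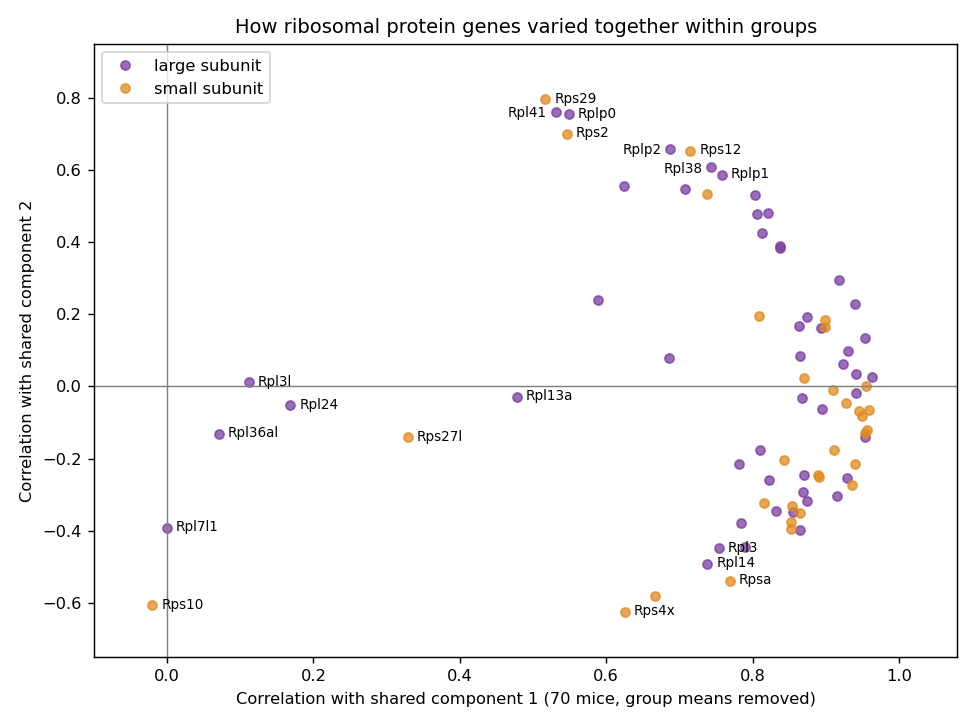
Correlation of each of 82 members with the first (horizontal) and second (vertical axis) shared component of vst values over 70 mice with group means removed, coloured by subunit. Most members crowd at the right edge, Rps29, Rpl41, Rplp0 and Rps2 lie at the top, and Rpl7l1, Rps10, Rpl36al and Rpl3l, all of low count, lie at the left.

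Some members have a close copy in the genome that can take the same place in the ribosome. Rpl22l1 took 26.1% ± 1.82 (SD, n = 11) of the counts of the pair Rpl22 and Rpl22l1 in controls, 26.2% ± 2.78 (SD, n = 12) in HOCl mice, 29.0% ± 1.75 (SD, n = 12) with D11, 28.9% ± 3.05 (SD, n = 12) with D06, 27.6% ± 3.41 (SD, n = 12) with BPR21 and 27.8% ± 2.02 (SD, n = 12) with E07. The range was 23.7% to 28.7% in controls and 26.1% to 31.9% with D11, so the groups overlapped. Rps27l, a p53 target, made up 1.29% of its pair with Rps27 in controls and 1.23% in HOCl mice. Rpl7l1 made up 3.34% of its pair with Rpl7 in controls and 2.98% in HOCl mice. Rpl36al and Rpl3l each took at most 1.36% of their pair in any mouse.

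Of the genes that work with the ribosome few passed the test. Over all genes 4.96% were called between HOCl and control mice, and 7.01% were called lower with E07. Fau and Rack1, ribosomal proteins whose symbols lie outside the rule, were not called in either comparison, and their differences between E07 and HOCl mice were 0.18 (SE 0.08) and 0.15 (SE 0.07). Of 15 elongation factors and other genes of the same pyrimidine-rich class, 2 were called higher in HOCl than in control mice and 2 lower with E07, with medians of -0.03 and 0.07 over the list. These were Pabpc1, the poly(A)-binding protein (1.03, SE 0.24, limma adjusted p = 0.0114, and -1.26, SE 0.20, limma adjusted p = 0.000176), and Eef1d, an exchange factor of elongation (0.91, SE 0.21, and -0.96, SE 0.19), and with log2(CPM + 1) their signs were the same (0.55 and -0.75 for Pabpc1, 0.45 and -0.49 for Eef1d). Tpt1 differed by 0.51 (SE 0.22) and -0.47 (SE 0.17) and passed neither test. Of 29 ribosome assembly factors 0 were called in either comparison. By the adjusted p alone, the export adaptor Nmd3 was lower in HOCl mice (-0.28, SE 0.08, limma adjusted p = 0.0458) and higher with E07 (0.28, SE 0.08, limma adjusted p = 0.0196), when Riok2 and Nob1 were higher as well. Of 6 rescue and recycling factors 0 were called, Abce1 differing by -0.31 (SE 0.09) between HOCl and control mice. Of 77 mitochondrial ribosomal protein genes 0 were called between HOCl and control mice and 1 was lower with E07, Mrpl32 (-0.60, SE 0.16, limma adjusted p = 0.0112), with medians over the list of -0.07 and 0.10. With log2(CPM + 1) the difference of Mrpl32 was -0.25 and did not pass the test. By the adjusted p alone 5 of the 77 were higher and 2 lower with E07, beside 5.07% and 9.96% of all genes.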

How the data were processed

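RNA from whole blood of 71 mice was analysed. Per the study's methods the authors trimmed reads with Cutadapt, aligned them to mm39 with STAR and counted them per gene with featureCounts. The deposited counts are unnormalized whole numbers for 55416 genes. The deposited normalized values are on a log2-like scale and were made by the authors with the vst function of DESeq2 after filtering to expressed protein-coding genes. How featureCounts treated reads that match several genes is not given in the sources used here. Groups came from the sample titles.

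Each comparison was fitted with limma 3.58.1 (R 4.3.3) on the vst values of all 10508 genes in the mice of both groups, with Benjamini-Hochberg adjustment over all genes. A call needed an adjusted p not above 0.05 together with a change of 1.3-fold or more. The alternatives were edgeR 4.0.16 (quasi-likelihood) and DESeq2 1.42.0 on the counts, log2(CPM + 1), centred values, other filters and each mouse left out. Centring on the members' mean, leaving out Rpl41, and leaving out HOCl mouse 7 with control mouse 12 were chosen after seeing the data. The fits on vst and CPM values lack HOCl mouse 8, while the count fits include it. The fits were tested on simulated data with known changes. Of the vst genes 10501 matched a single gene of the count table. Coordinates are GRCm39 with GENCODE annotation (not necessarily the release the authors used). CPM per kilobase used the canonical transcript length.

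The members, the gene lists and the tests were chosen with earlier results of these data known. Members were named where called, at the 3 highest and 3 lowest differences of a comparison, by level or shared variance, as copies, or from a list with known roles. The other genes named are the up to 3 of each list with the largest difference. Members named by their adjusted p alone or by the second component were chosen after their values were seen. Mice of a group are treated as replicates, so p-values set group differences against the spread between mice and cannot tell cage from group. Values of some single genes are not reported here.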

Additional observations from a re-analysis of the deposited data

How the results depend on the processing

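The number of members called between HOCl and control mice was 0 in the fit reported, 1 with members centred on their own mean, 1 with all 6 groups in a single fit, 2 without HOCl mouse 7 and control mouse 12 and 59 with log2(CPM + 1), and 0 to 4 when each mouse was left out in turn. Between E07 and HOCl mice it was 2 in the fit reported, 13 by the adjusted p alone, 1 with all 6 groups in a single fit, 1 without those mice, 3 with edgeR, DESeq2 or values centred on each mouse's median and 69 with log2(CPM + 1), and 0 to 3 with each mouse left out. Over all genes, log2(CPM + 1) gave 48.9% called lower between HOCl and control mice and 62.5% called higher with E07. The adjusted p alone gave 5.07% of all genes higher and 9.96% lower with E07. For D06 DESeq2 called 2 higher (1.48% of the genes to which it gave an adjusted p), and for D11, D06 and BPR21 leaving out each mouse gave 0 to 0. The cause of these changes was not tested. With log2(CPM + 1) the median over members moved to -0.50 for HOCl against control and 0.62 for E07 against HOCl, and leaving out each mouse gave medians from -0.08 to 0.04 and from 0.09 to 0.17. The sign of a named difference turned with log2(CPM + 1) for Rplp0 (-0.0269) and Rps2 (-0.0606) between HOCl and control, Rps29 (0.11) and Rplp0 (0.10) with E07, and Rpl37a (0.00612) and Rpl28 (0.0306) with D11. Without HOCl mouse 7 and control mouse 12 it turned for Rpl37a with D11 (0.0330), Rpl10 (0.0569), Rps2 (0.0566) and Rpl38 (0.13) with D06, and Rpl41 (0.0576) and Rpl37a (0.0140) with BPR21. With values centred on each mouse's median it turned for Rpl38 with D06 (0.00632).

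Mouse numbers recur in every group, but at most 4 of 10 or 11 pairs of the same number deviated together (correlation above 0.1), so they were not taken as pairs. With the number as a replicate block 0 members were called for E07, and Rpl10 (0.0223), Rps2 (0.0910) and Rpl38 (0.0908) turned sign with D06. It moved no count of calls in the other 4 planned comparisons and was not run for those added later.

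Without the 5 members of highest count the share of counts was 6.80% in control, 5.01% in HOCl and 5.92% in D11 mice. It was 7.34% in E07, 5.38% in D06 and 5.72% in BPR21 mice. With only the genes of the vst table as the total, the share of all members was 9.09%, 7.06%, 8.44%, 9.90%, 7.91% and 8.08% in the same order. The log2 ratio of large to small subunit counts without these 5 was 0.18, 0.21, 0.18, 0.16, 0.18 and 0.17 in control, HOCl, D11, E07, D06 and BPR21 mice, and without Rpl41 it was 0.19, 0.27, 0.23, 0.16, 0.26 and 0.23. Taken as the difference of mean vst values, where each gene weighs the same and low members count fully, it was -0.71, -0.64, -0.68, -0.72, -0.66 and -0.69 in the same order. Members under 1000 counts, and those that share reads with pseudogenes, are the least certain at this depth.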
